A study of Mus musculus with 16 samples.

Results

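The ErbB receptors are a family of 4 receptor tyrosine kinases, encoded in the mouse by Egfr, Erbb2, Erbb3 and Erbb4. All 4 genes were found by symbol among the 5921 gene rows analysed here, and all 4 passed the filter on low values. The data are RNA-seq of ventricles dissected at E11.5, with 16 libraries divided evenly over 4 groups of mouse embryos. The study addressed the part that ATF4, a transcription factor of the stress and amino acid response, plays in heart development. Atf4 was deleted with Xmlc2-Cre, a Cre transgene described as cardiomyocyte-specific, so cells of other types in the ventricle were meant to keep the gene. In the exon 2-3 line the floxed part of Atf4 was exons 2 and 3, and in the exon 2 line it was exon 2 alone. Each line had its own conditional knockout (cKO) libraries and its own controls. The labels give batch 1 for all libraries of the exon 2-3 line and batch 2 for all those of the exon 2 line. The strain and genotype label reads C57BL/6 WT for every library, cKO included, and whether the controls carried a floxed allele or the Cre is not stated.

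ErbB receptors act as pairs on the cell surface. Ligand binding brings receptors together, the kinase of 1 receptor phosphorylates the tail of its partner, and adaptors on the tail start the ERK, PI3K and STAT pathways. ErbB2 has no known ligand of its own and serves as the preferred partner of the others, while ErbB3 binds neuregulin but has a weak kinase and signals mainly through its partners. In the embryonic ventricle, neuregulin from the endocardium acts on ErbB2 and ErbB4 of cardiomyocytes and is needed for the muscular ridges called trabeculae. ErbB3 is known for its part in the cushion mesenchyme that forms the valves and in neural crest derivatives, and EGFR for its part in the growth of the outflow valves.

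Values are the authors' TPM, a level scaled to transcript length and to the library's total, and the files give no read numbers, so the depth behind a value is unknown. The rows analysed here lie on chromosomes 1 and 10 and on chromosome 11 up to position 106501211, and their values summed to between 15.2% and 17.1% of a full library. Libraries of the same group correlated across genes with Pearson's r between 0.982 and 0.992 over 24 pairs. Cardiomyocyte genes dominated the tissue: the 7 markers analysed, Tnnt2 and Myl7 among them, summed to between 12655 and 18635 TPM in every library, and none was at 0. Endothelial, epicardial, cushion mesenchyme, erythroid and myeloid markers were present as well, so the libraries hold several cell types. Atf4 was not analysed here, so its deletion does not check the labels, and every direction below rests on them. The design describes the 4 libraries of a group as biological replicates.

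The family lies on 3 chromosomes of the GRCm38.p6 build. Egfr spans positions 16752203 to 16913907 of chromosome 11 on the plus strand, and Erbb2 spans 98412484 to 98437716 of the same chromosome and strand. Erbb3 spans 128567523 to 128589635 of chromosome 10 and Erbb4 spans 68031884 to 69108576 of chromosome 1, both on the minus strand. The spans differ widely, from 22113 bp for Erbb3 and 25233 bp for Erbb2 to 161705 bp for Egfr and 1076693 bp for Erbb4. Whether the authors' counting used the strand is not stated, so rows that share positions with a receptor were looked at. Egfr shares positions with Gm39584 and Egfros on the other strand, which did not exceed 0.0169 TPM in any library. Erbb2 shares only 9 bases at its end with Mien1, and the rows inside Erbb3 and Erbb4 did not exceed 0.739 TPM.

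The stretch before the start of Egfr is shown because Egfr was the receptor whose level passed the test in a cKO (below). It is the RefSeq sequence of chr11:16751953-16752202, plus strand, 250 bases that end at the start of the gene and hold no exon of the GENCODE annotation. Capitals mark CCTCC and the GC box GGGCGG, which lies on the other strand and so reads CCGCCC.
Egfr promoter: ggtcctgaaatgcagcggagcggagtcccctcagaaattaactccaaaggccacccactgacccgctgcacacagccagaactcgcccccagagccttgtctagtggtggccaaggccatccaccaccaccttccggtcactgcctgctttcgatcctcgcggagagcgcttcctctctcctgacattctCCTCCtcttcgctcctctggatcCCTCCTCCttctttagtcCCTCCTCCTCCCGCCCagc
The window held 6 matches of CCTCC, all within the 60 bases before the start, and 1 GC box, which overlaps the last CCTCC. On both strands searched, 67.1% of the 32536 RefSeq windows of the same length held CCTCC and 33.0% held GGGCGG. Its GC content was 60.8% with 11 CpG dinucleotides, against medians of 52.4% and 6 over all windows. The letters TGATGNAA, the composite element bound by C/EBP and ATF proteins, occur in 3.40% of windows, and TGACGTCA, the cyclic AMP response element, in 1.56%. Neither occurs in the Egfr window, nor does TATAAA, found in 12.3% of windows. None of these occurs in the windows of Erbb2 and Erbb4 either. Those windows held 7 and 5 matches of CCTCC, with GC contents of 66.0% and 54.0%, and neither held GGGCGG. The Erbb2 window overlaps an exon of Erbb2, and the Erbb4 window lies inside the span of its gene. No Erbb3 window was analysed, and protein binding was not tested.

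In control ventricle the co-receptor Erbb2 was by far the most abundant of the family, followed by Erbb4, then Erbb3, then Egfr. Erbb2 was at 50.5, 48.5, 38.6 and 49.3 TPM in control replicates 1 to 4 of the exon 2-3 line, and at 60.1, 57.2, 65.2 and 61.1 TPM in those of the exon 2 line. These levels lay above those of 78.8% and 82.9% of the 2620 genes tested, respectively. The neuregulin receptor Erbb4 was at 8.86, 8.93, 8.25 and 10.3 TPM in the exon 2-3 controls and at 16.6, 14.3, 18.7 and 17.2 TPM in the exon 2 controls. Erbb4 thus lay near the middle of the tested genes in the exon 2 line, above 49.9% of them, and above 36.9% in the exon 2-3 line.

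Erbb3, the neuregulin receptor with a weak kinase, was at 4.72, 4.997, 3.72 and 6.82 TPM in the exon 2-3 controls and at 8.90, 7.11, 8.80 and 9.63 TPM in the exon 2 controls. Egfr, the receptor of EGF, amphiregulin and HB-EGF, was at 1.14, 0.803, 1.03 and 0.975 TPM in the exon 2-3 controls and at 1.88, 1.58, 2.17 and 1.58 TPM in the exon 2 controls. Egfr was near the bottom of what could be tested, with only 2.60% and 9.05% of the tested genes below it.

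The order Erbb2, Erbb4, Erbb3, Egfr held in both control groups, and within each group the libraries of neighbours in the order did not overlap. Over all 8 controls, Erbb4 (lowest 8.25 TPM) and Erbb3 (highest 9.63 TPM) did overlap, while the other neighbours did not. Within a library, Erbb4 exceeded Erbb3 by 1.90-fold ± 0.223 (SD, n = 8), with a lowest ratio of 1.503. Erbb2 exceeded Erbb4 by 5.15-fold ± 0.489 in the exon 2-3 controls and by 3.66-fold ± 0.226 in the exon 2 controls (SD, n = 4 each). Erbb3 exceeded Egfr by 5.24-fold ± 1.62 and 4.85-fold ± 0.888, respectively. In bulk tissue, a level that is low because few cells carry the transcript and one that is low in every cell cannot be told apart.

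**Figure D1:**
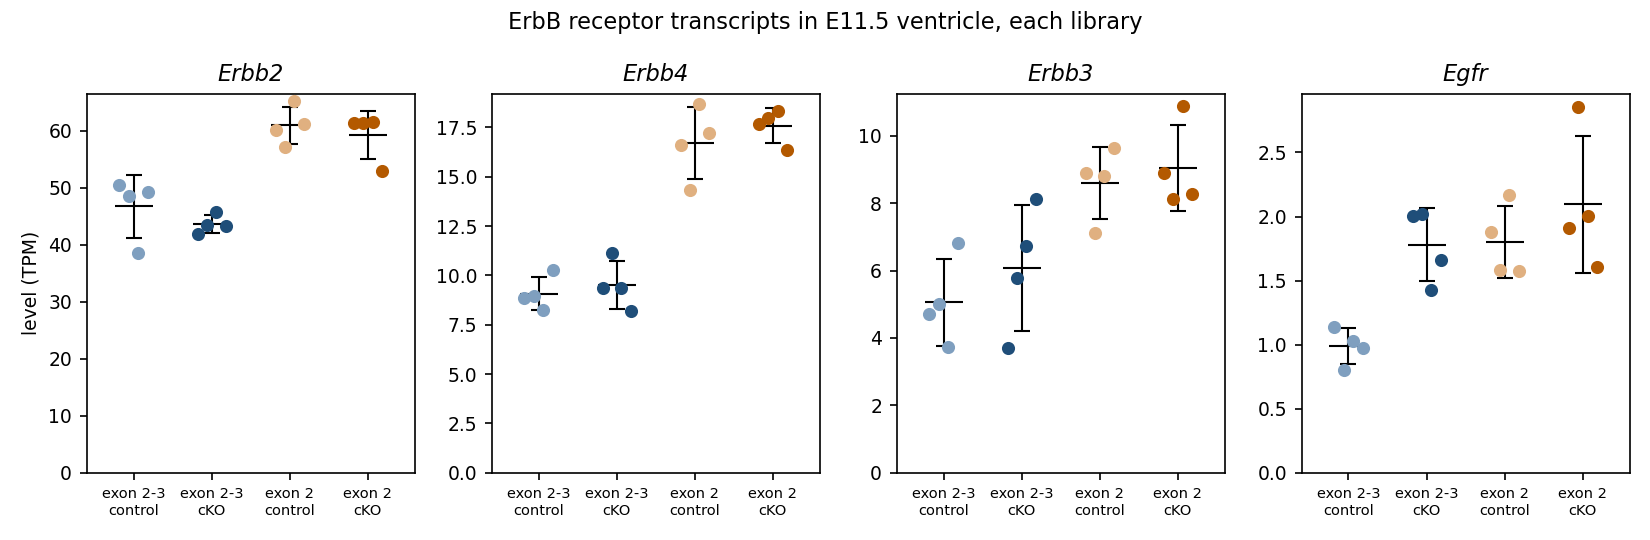
Level of each receptor (TPM, linear axis from 0, a separate scale for each gene) in the 16 ventricle libraries, with each point a library and the bars the mean and SD of 4. Erbb2 sits between 38.6 and 65.2 TPM and Egfr between 0.803 and 2.86 TPM, and the exon 2-3 cKO points of Egfr lie above all 4 of their controls.

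All 4 receptors were lower in the controls of the exon 2-3 line than in those of the exon 2 line, and for none did the 2 control groups overlap. Erbb4 differed most, with a mean of 9.08 ± 0.842 against 16.7 ± 1.82 TPM (SD, n = 4 each), a difference of -0.81 in log2(TPM + 1) (SE 0.093, limma adjusted p 3.40e-06). Erbb3 differed by -0.68 (limma adjusted p 0.00486), Egfr by -0.49 (limma adjusted p 0.00407) and Erbb2, with 46.7 ± 5.47 against 60.9 ± 3.31 TPM, by -0.38 (limma adjusted p 0.000647). Such a difference was common: 52.6% of the tested genes were called in this comparison, 38.1% as lower, and 32.6% were lower without overlap. The median difference was -0.59 over the receptors and -0.14 over all genes tested. Centring each library on its median moved the median over all genes by 0.18, to 0.04, and the receptors then differed by between -0.20 (Erbb2) and -0.63 (Erbb4), all 4 still lower and called.

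Markers of the tissue's cell types moved between the same controls. Of 7 cushion mesenchyme and fibroblast markers tested, 6 were called lower in the exon 2-3 controls and 1 was called higher. Of all genes tested, 38.1% were called lower. The sum of the marker list was 326 to 373 TPM against 483 to 663 TPM. Of 7 cardiomyocyte markers, 5 were called higher and none lower, beside 14.4% of all genes tested called higher, with sums of 17146 to 18635 against 12655 to 14759 TPM. The part of these shifts in the receptors' difference was not tested. Line and batch cannot be told apart in this comparison.

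In the cKO of exons 2 and 3 of Atf4, Egfr was the only receptor of the 4 to pass the test, as higher, and the 3 more abundant receptors did not pass. Egfr was at 2.00, 2.02, 1.43 and 1.66 TPM in the cKO replicates 1 to 4, against 0.803 to 1.14 TPM in the controls. Every cKO library therefore lay above every control. The mean rose 1.80-fold, from 0.987 ± 0.140 to 1.78 ± 0.285 TPM (SD, n = 4 each), a change of 0.48 in log2(TPM + 1) (95% interval 0.22 to 0.74, limma adjusted p 0.0361). With a pseudocount of 0.1 in place of 1, which compresses low levels less, the change was 0.79 (limma adjusted p 0.0404). The control mean of 0.987 TPM lay under the filter's minimum of 1, which Egfr passed by its mean over all 16 libraries. Among all tested genes, 6.72% were called in this line, 4.16% as higher, and 9.24% were higher without overlap. The call for Egfr was close to the threshold: leaving out any 1 of the 8 libraries lost it (limma adjusted p between 0.0526 and 0.103, change between 0.43 and 0.54), as did testing without the filter on low values (limma adjusted p 0.0676) or with quantile normalisation (limma adjusted p 0.0585). With the replicate number as a block the limma adjusted p was 0.0663. The controls of this line are the ones that were low in Egfr beside the exon 2 line, so the cKO mean of 1.78 TPM was close to the 1.80 TPM of the exon 2 controls. Both differences share the exon 2-3 controls.

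Erbb2, the co-receptor of cardiomyocyte neuregulin signalling, was at 41.9, 43.4, 45.7 and 43.3 TPM in the exon 2-3 cKO. These values lay within the spread of the controls, whose replicate 3 was low and whose other replicates were all higher than every cKO library. The change was -0.09 in log2(TPM + 1), with a 95% interval of -0.28 to 0.09 (limma adjusted p 0.579). Without control replicate 3 it was -0.18 and passed the threshold (limma adjusted p 0.0493), so this library decided the call.

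Erbb4 was at 9.38, 11.1, 9.36 and 8.18 TPM in the exon 2-3 cKO, which overlapped the controls at both ends. Its change was 0.06 (95% interval -0.17 to 0.28, limma adjusted p 0.790). Erbb3 varied most among replicates, at 3.70, 5.76, 6.74 and 8.11 TPM in the cKO, so that the lowest and the highest of the line's 8 libraries were both cKO. Its change of 0.21 had a wide 95% interval, -0.26 to 0.67 (limma adjusted p 0.628). The median change of the 4 receptors was 0.13, beside 0.03 over all genes tested.

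**Figure D2:**
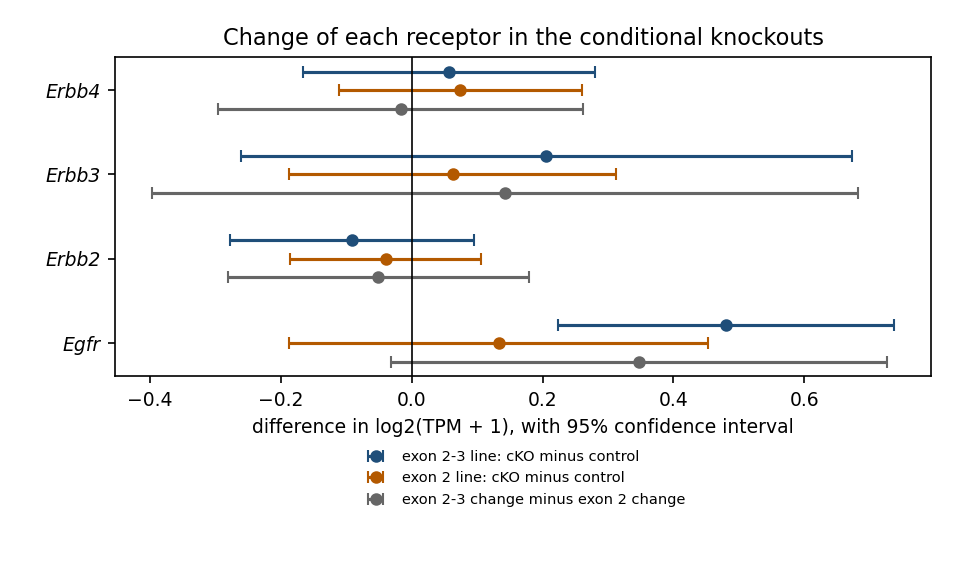
Difference between cKO and control for each receptor in log2(TPM + 1), with limma's 95% confidence interval, in the exon 2-3 line (blue) and the exon 2 line (orange), and the difference between those changes (grey). The interval of Egfr in the exon 2-3 line, 0.22 to 0.74, lies above 0, and the other 11 intervals include 0.

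Deleting exon 2 alone changed no receptor past the threshold. Egfr was at 1.91, 2.86, 2.00 and 1.61 TPM in the exon 2 cKO, with replicate 2 above the other libraries and the rest inside the range of the controls. Erbb2 was at 61.3, 61.4, 61.5 and 52.9 TPM, with replicate 4 below all the controls. Erbb4 was at 17.7, 17.99, 18.3 and 16.3 TPM and Erbb3 at 8.89, 8.12, 10.9 and 8.28 TPM, both overlapping the controls.

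The 95% intervals of the change in the exon 2 line were narrow for Erbb2 (-0.19 to 0.11, change -0.04) and Erbb4 (-0.11 to 0.26, change 0.07). They were wider for Erbb3 (-0.19 to 0.31, change 0.06) and Egfr (-0.19 to 0.45, change 0.13). The limma adjusted p was 0.999 for each receptor, and none had an unadjusted limma p under 0.05. Few genes changed in this line: 0.0763% of those tested were called, which is 2 genes, and 84 had an unadjusted p under 0.05. The median change of the receptors was 0.07, beside -0.01 over all genes.

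Whether the lines differed in their response was tested with the interaction term, which called 0 of the 4 receptors and 2.37% of all genes tested. For Egfr the change was larger in the exon 2-3 line by 0.35, with a 95% interval of -0.03 to 0.73 (limma p 0.0702, adjusted p 0.390). So the rise of Egfr in the exon 2-3 line was not shown to differ from its change in the exon 2 line. The terms of Erbb3 (0.14, limma adjusted p 0.863), Erbb2 (-0.05, limma adjusted p 0.892) and Erbb4 (-0.02, limma adjusted p 0.977) had 95% intervals that include 0.

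Markers of mesenchymal and epicardial cells rose with Egfr in the exon 2-3 cKO. Of 17 cushion mesenchyme and fibroblast markers, 8 were among the rows analysed and 7 were tested. In the exon 2-3 line 5 of these were called higher and none lower, beside 4.16% of all genes called higher, with a median change of 0.51 beside 0.03 over all genes. Tcf21, a transcription factor of the epicardium and of cardiac fibroblast precursors, rose from 35.4 ± 3.49 to 57.9 ± 3.71 TPM (SD, n = 4 each, change 0.70, limma adjusted p 0.000969). The collagen gene Col1a1 rose from 44.0 to 69.9 TPM (limma adjusted p 0.00652), and Dcn, which encodes the matrix proteoglycan decorin, rose from 46.0 to 71.1 TPM (limma adjusted p 0.00635). Col3a1 and Col5a2 were the other 2 called.

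The summed level of the 8 mesenchymal markers was 326 to 373 TPM in the exon 2-3 controls and 484 to 530 TPM in the cKO, without overlap. In the exon 2 line, where Egfr did not pass the test, it was 483 to 663 TPM in controls and 466 to 604 TPM in cKO. The sum and Egfr were both lowest in the exon 2-3 controls. Such a difference was common, since 32.6% of all genes tested were lower without overlap in these controls than in the exon 2 controls. Not all markers of the sum went this way. Dcn was higher in the exon 2-3 controls, at 46.0 against 39.2 TPM, while 6 of the 7 markers tested were called lower. Whether the sum and Egfr are related was not tested. Both epicardial markers analysed of a list of 10, Tcf21 and Krt19, were called higher in the exon 2-3 cKO, with sums of 116 to 131 TPM in controls and 168 to 191 TPM in cKO. Tcf21 is on both lists and counts in both sums, so Krt19 is the only marker that the epicardial list adds. In the exon 2 line the epicardial sum was 108 to 125 TPM in controls and 99.5 to 121 TPM in cKO.

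No endothelial, erythroid or myeloid marker tested was called in the exon 2-3 line, beside 6.72% of all genes tested. All 3 endothelial markers tested were higher in the cKO, with a median change of 0.21 beside 0.03 over all genes. Flt4 was higher without overlap, as were 9.24% of all genes tested. Of 3 myeloid markers tested, 2 were higher. The other, Lyz2, was lower, at 77.4 to 82.8 TPM in the exon 2-3 controls and 66.0 to 77.1 TPM in the cKO. The endothelial sum was 202 to 266 TPM in the exon 2-3 controls and 249 to 280 TPM in the cKO. The erythroid sum varied most, from 2997 to 4556 TPM and from 1513 to 11298 TPM. The sum of the 7 cardiomyocyte markers was 17146 to 18635 TPM in controls and 16634 to 17634 TPM in cKO. Of these 7, only Hand1 was called, as lower, beside 6.72% of all genes called in either direction. Tnni1 had a mean of 3058 TPM in controls and 2395 TPM in cKO. Its change was -0.39 (95% interval -0.75 to -0.02, limma adjusted p 0.213). The median change of the 7 was -0.07. The 3 neural crest and Schwann cell markers summed to under 2.62 TPM in every library, and no smooth muscle marker was tested. Rgs5, the smooth muscle marker analysed, was at 0.367 to 0.848 TPM in the exon 2-3 controls and at 1.23 to 1.35 TPM in the cKO, without overlap, and at 0.556 to 1.24 and 0.631 to 1.14 TPM in the exon 2 line. No marker analysed was at 0 in all libraries. The part of these cell types in the rise of Egfr was not tested.

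**Figure D3:**
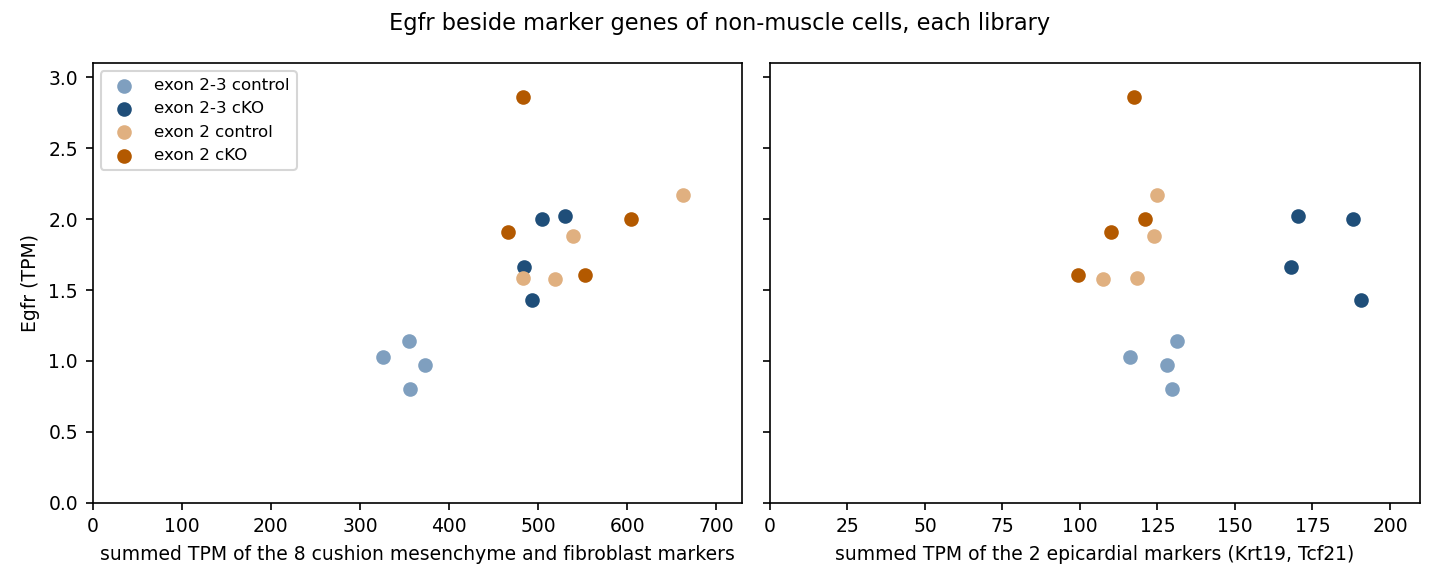
Level of Egfr (TPM) in each of the 16 libraries against the summed TPM of the 8 cushion mesenchyme and fibroblast markers (left) and of the 2 epicardial markers (right), with each point a library coloured by group. Tcf21 counts in both sums. On the left the exon 2-3 controls (326 to 373 TPM) stand apart from the other 12 libraries, and on the right the exon 2-3 cKO libraries (168 to 191 TPM) do.

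Shares within the family do not depend on how a library is scaled. The summed level of the 4 receptors in control and cKO was 61.8 ± 7.02 and 60.9 ± 2.77 TPM in the exon 2-3 line and 88.0 ± 6.07 and 88.0 ± 6.03 TPM in the exon 2 line (SD, n = 4 each). Erbb2 made up 75.5% ± 1.91 of the sum in the exon 2-3 controls and 71.5% ± 1.71 in the cKO. In the exon 2 line it made up 69.2% ± 1.39 in the controls and 67.3% ± 0.918 in the cKO. The mean share of Erbb2 was thus lower in the cKO of both lines, with overlap between the groups in each (exact permutation p 0.0571 in each, two-sided).

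The share of Egfr was 1.75%, 1.27%, 2.00% and 1.45% in the exon 2-3 controls and 3.52%, 3.24%, 2.26% and 2.71% in the cKO. These groups did not overlap, and the exact permutation p of 0.0286 is the smallest that 4 against 4 libraries can give. In the exon 2 line the share of Egfr was 2.04% ± 0.228 in controls and 2.37% ± 0.532 in cKO (exact permutation p 0.343). Erbb4 made up 18.9% ± 0.782 in the exon 2 controls and 20.0% ± 0.431 in the cKO (exact permutation p 0.0571), and 14.7% ± 1.08 and 15.6% ± 1.96 in the exon 2-3 line (exact permutation p 0.486). Erbb3 went from 8.12% ± 1.38 to 9.91% ± 2.82 in the exon 2-3 line (exact permutation p 0.343) and from 9.77% ± 0.853 to 10.3% ± 1.15 in the exon 2 line (exact permutation p 0.543). After Benjamini-Hochberg adjustment over these 8 comparisons no share passed, the smallest adjusted p of the exact permutation tests being 0.114. The shares of a library sum to 100% and are not independent.

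**Figure D4:**
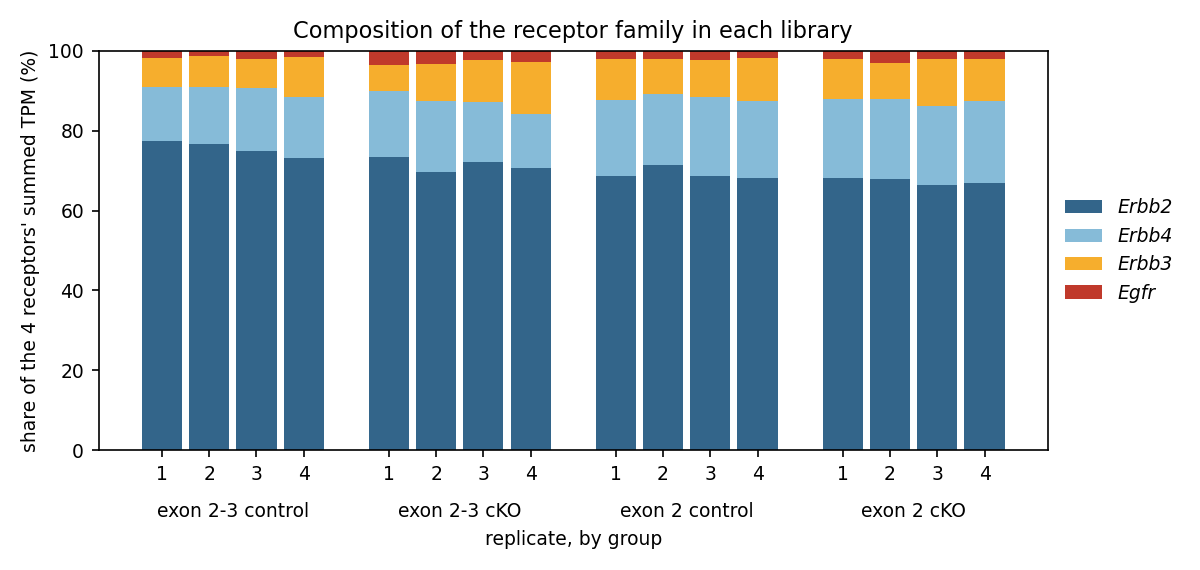
Share of each receptor (%) in the summed TPM of the 4 receptors, with each bar a library and the replicates side by side within a group. Erbb2 fills between 66.3% and 77.4% of every bar and Egfr between 1.27% and 3.52%.

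For some pairs of receptors, how far they followed each other across libraries differed between the batches. With each library taken as its deviation from its batch mean, Pearson's r between Erbb2 and Erbb4, the receptor pair of cardiomyocytes, was 0.40 over the 16 libraries (Spearman's rho 0.49), with 0.24 in batch 1 and 0.69 in batch 2. Erbb4 and Egfr gave r 0.43 (rho 0.40), with 0.33 in batch 1 and 0.61 in batch 2, and Erbb4 and Erbb3 gave r 0.30 (rho 0.34), with 0.16 and 0.70. For Egfr and Erbb2 the batches went opposite ways, with r -0.44 in batch 1 and 0.53 in batch 2, so the value of -0.13 over all 16 (rho -0.10) holds in neither. In the remaining pairs the batches were close. Erbb2 and Erbb3 gave r 0.37 (rho 0.28), with 0.36 in batch 1 and 0.43 in batch 2. Egfr and Erbb3 gave r 0.07 (rho 0.08), with 0.08 and 0.04. No difference in r between batches was tested. Libraries of a group share their genotype and batch, and TPM values of a library share its total, so these values describe the 16 libraries only.

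The 3 genes most like each receptor were taken from the other 2619 genes tested. Egfr was most like Dusp18 (r 0.85), Dcn (r 0.81) and Lhx9 (r 0.81). Erbb2 was most like Rgl1 (r 0.87), Pfkl (r 0.85) and Tmpo (r 0.85), and Erbb3 most like Ptprb (r 0.88), Unc5b (r 0.88) and Adamtsl5 (r 0.87). Erbb4 was most like Mon2 (r 0.79), Taok1 (r 0.76) and Camsap2 (r 0.73). Some of these values also differed between batches 1 and 2, with r 0.93 and 0.48 for Egfr and Lhx9, 0.92 and 0.65 for Egfr and Dcn, and 0.96 and 0.51 for Erbb2 and Tmpo.

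Of the genes most like Egfr, Dusp18 (from 10.1 to 15.7 TPM, change 0.59, limma adjusted p 0.00652) and Dcn (change 0.62) were called higher in the exon 2-3 cKO. Lhx9 was at 0.529 TPM in the controls and 1.91 TPM in the cKO of that line, and since it passed the filter on low values only through that cKO group, its change is given with no test. All 3 were chosen for their likeness to Egfr over these same libraries, so their changes are no independent evidence. Ptprb, the gene most like Erbb3, was also uneven among the exon 2-3 libraries, with 3.46 to 7.72 TPM in controls and 4.67 to 11.2 TPM in cKO.

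Other genes of ErbB signalling were taken from lists by role, of which 37 of 188 genes were among the rows analysed and 33 were tested. In the exon 2-3 line 3 of the 33 were called higher and none lower, beside 4.16% of all genes called higher, with a median change of 0.04 beside 0.03 over all genes. In the exon 2 line none was called, beside 0.0763% of all genes tested, with a median of -0.0016. None of the 11 ligand genes was analysed here.

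Of the genes that release ligands from the cell surface, Adam19, a metalloprotease that cleaves neuregulin, was at 37.1 ± 4.96 TPM in the exon 2-3 controls and 46.4 ± 5.07 TPM in the cKO (SD, n = 4 each, change 0.32, limma adjusted p 0.104). Rhbdf1, a pseudoprotease that guides the sheddase ADAM17, had the same change of 0.32 (limma adjusted p 0.150). Neither passed the test in either line.

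None of 10 adaptors and proximal effectors and none of 6 downstream kinases was called in either line. Of all genes tested, 6.72% were called in the exon 2-3 line and 0.0763% in the exon 2 line, so few calls would be looked for in lists this short. Grb10, an adaptor that binds activated receptor kinases and the most abundant of the adaptors, was at 673 ± 51.1 TPM in the exon 2-3 controls and 597 ± 32.1 TPM in the cKO (change -0.17, limma adjusted p 0.169). Mien1, the neighbour of Erbb2 that shares its last bases, changed by -0.05 (limma adjusted p 0.662). Of the kinases, Map2k2, which activates ERK, was at 88.0 and 83.0 TPM, and Map2k4, which activates JNK, was at 47.7 and 50.9 TPM.

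Of 8 genes tested from the list of negative regulators and traffic, 2 were called higher in the exon 2-3 line and none lower. Of all genes tested, 4.16% were called higher. The interaction term was called for 2 of the 8, beside 2.37% of all genes tested. Tob1, whose product binds ErbB2 and restrains growth, was at 15.7, 19.7, 15.1 and 18.9 TPM in the exon 2-3 controls and at 23.8, 29.1, 28.4 and 27.1 TPM in the cKO, without overlap. It rose by 0.62 in log2(TPM + 1) (SE 0.099, limma adjusted p 0.00736) and kept its call in all 17 alternatives, where the largest limma adjusted p was 0.0413. In the exon 2 line Tob1 was at 24.8 to 31.3 TPM in controls and 23.2 to 26.7 TPM in cKO, and the interaction term of 0.76 was called (limma adjusted p 0.00370). Its exon 2-3 controls, like those of Egfr, were low beside the exon 2 controls, by -0.67 (limma adjusted p 2.24e-05), and both differences share them.

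Dusp3, a phosphatase whose substrates include ERK, was at 40.3, 44.4, 36.7 and 38.7 TPM in the exon 2-3 controls and at 49.1, 48.4, 51.6 and 47.2 TPM in the cKO. It rose by 0.29 (SE 0.065, limma adjusted p 0.0305) with no overlap, and lost the call in 8 of 17 alternatives. Its interaction term of 0.34 was called (limma adjusted p 0.0482) and lost in 17 of 24. The exon 2-3 controls of Dusp3 were also low beside the exon 2 controls, by -0.35 (limma adjusted p 0.000246). The rise in the cKO and this difference share them. Pa2g4, an ErbB3-binding protein and the most abundant of this list, was at 135 and 139 TPM.

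Among 6 genes tested that respond to ErbB and ERK signals, 1 was called higher in the exon 2-3 line, beside 4.16% of all genes. Of the 6, 4 had a change above 0, and the median was 0.24 beside 0.03 over all genes. The gene called was Mybl1, a transcription factor. It was at 1.56, 1.59, 1.44 and 1.60 TPM in controls and at 2.17, 2.85, 2.19 and 2.26 TPM in cKO, without overlap (change 0.40, SE 0.10, limma adjusted p 0.0438), and lost the call in 11 of 16 alternatives. The exon 2-3 controls of Mybl1, too, were low beside the exon 2 controls, with means of 1.55 against 3.43 TPM (difference -0.78, limma adjusted p 0.000250). The rise in the cKO and this difference share them. Hmga2, a chromatin protein and the most abundant of the list, was at 79.9 and 93.6 TPM (change 0.23, limma adjusted p 0.200), and Ier5 was at 20.2 and 18.04 TPM (limma adjusted p 0.242). The largest change of the list was that of Phlda1, from 11.9 to 17.2 TPM (change 0.51, limma adjusted p 0.0686). Epha4 went from 6.17 to 7.49 TPM (change 0.24, limma adjusted p 0.125). Hey2, a transcriptional repressor of the compact myocardium and the single gene analysed of 13 trabecular and compact markers, was at 73.5 ± 8.52 and 72.4 ± 4.37 TPM in the exon 2-3 line (change -0.02, limma adjusted p 0.946). Between the controls, 22 of the 33 pathway genes were called lower in the exon 2-3 line and 2 higher, beside 38.1% and 14.4% of all genes tested. The median difference was -0.32 beside -0.14 over all genes, a value that median centring moved by 0.18.

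**Figure D5:**
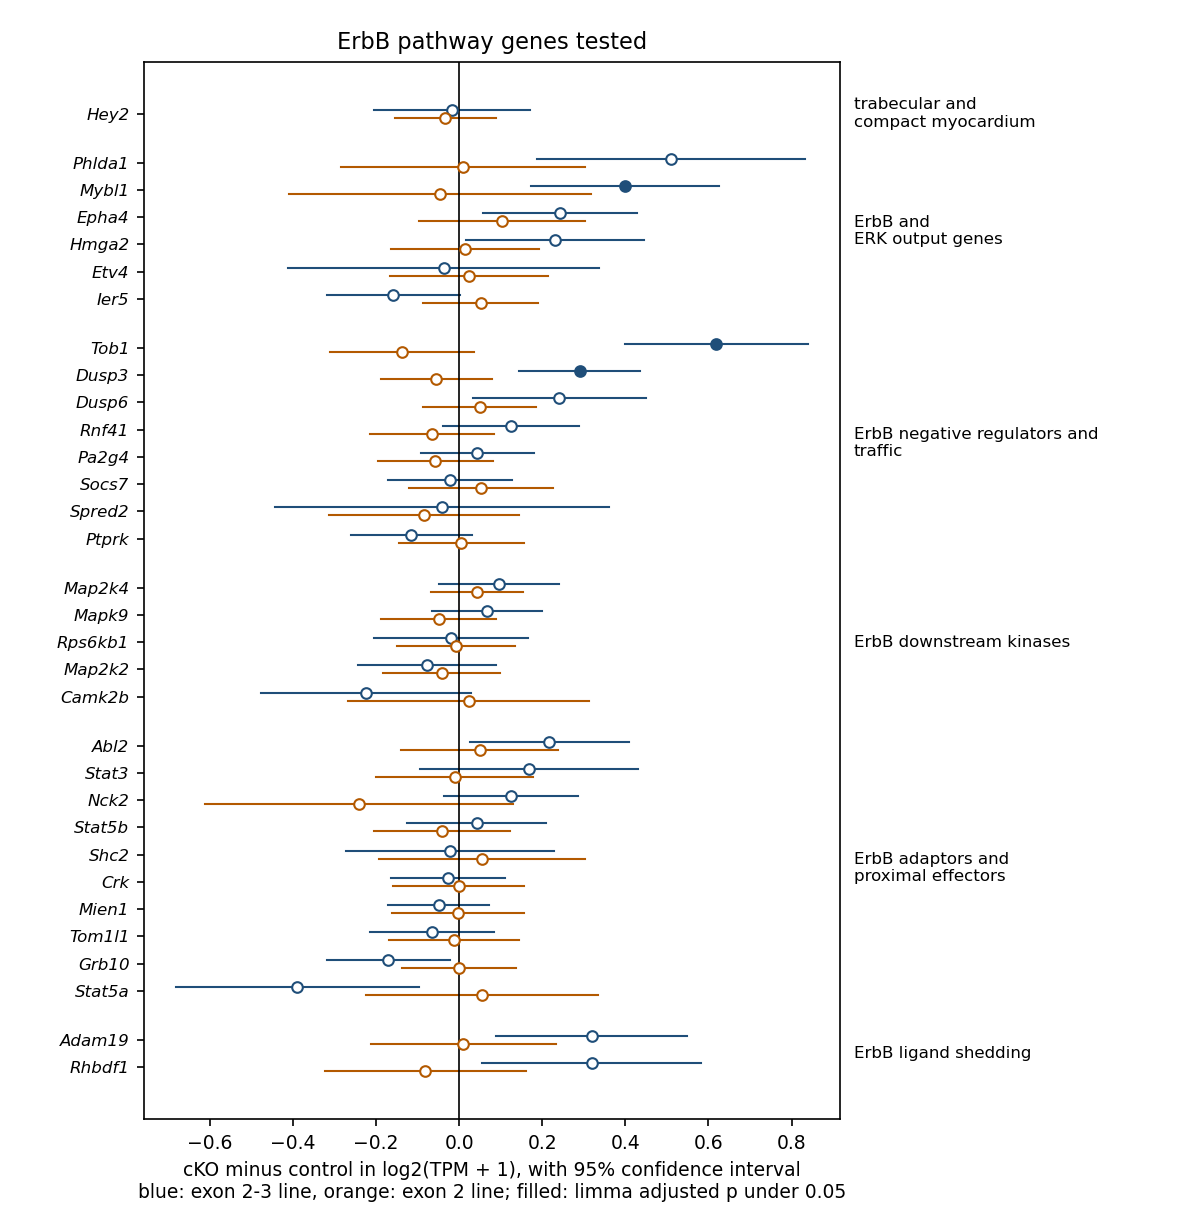
Change of tested ErbB pathway genes, all but 1 of the 33 (cKO minus control in log2(TPM + 1), with limma's 95% confidence interval) in the exon 2-3 line (blue) and the exon 2 line (orange), grouped by role, with filled points called. Tob1 (0.62), Mybl1 (0.40) and Dusp3 (0.29) are the only filled points, all in the exon 2-3 line.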

How the data were processed

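The authors deposited 1 table of TPM values, of which 5921 rows were used. The table was held in part, an incomplete final line was dropped, and Atf4 was not analysed here. Per the submitters' processing notes, the tools were FastQC, Trim Galore 0.6.7, HISAT2 2.2.1, StringTie 2.2.1, featureCounts and DESeq2, with GRCm38, and no role is given for each. For 5919 rows the coordinates were the same as in RefSeq on GRCm38.p6. Per the labels' protocols, library preparation is given both as stranded mRNA and as ribosomal RNA depletion, and the extraction text names cortical neurons while each tissue label names ventricle.

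Values were tested as log2(TPM + 1), which understates changes of low genes, over 2620 genes whose mean TPM reached 1. Tests used limma 3.58.1 (lmFit, eBayes with trend) in R 4.3.3, two-sided, with Benjamini-Hochberg adjustment over all genes tested and a threshold of 0.05. The cKO comparisons used the 8 libraries of the line, and the interaction and control difference on all 16. The procedure was tested on simulated data. Shares used exact permutation tests. The deviations of same-numbered libraries correlated between -0.0287 and 0.211 in the exon 2-3 line and between 0.0639 and 0.200 in the exon 2 line. Replicate 4 of the exon 2-3 line and replicates 1, 2 and 3 of the exon 2 line matched their own number best. In neither line was the correlation above 0.1 in every pair, so the numbers were not taken as pairs.

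The receptors and all gene lists were chosen with earlier results of these data known. Named are all receptors, pathway genes called in either line or the interaction, the 2 most abundant tested genes of each pathway list, and the 3 genes most like each receptor. Markers and other genes named were chosen after their values were seen. Alternatives were a pseudocount of 0.1, no filter, a mean TPM of at least 5, quantile normalisation, median centring, rescaling without hemoglobin genes, the replicate block, no trend, 1 fit over all libraries, and leaving out each library. The values of 1 pathway gene are not reported here.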

Additional observations from a re-analysis of the deposited data

Results flagged for a closer look

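A single library stood apart from the other 3 of its group in 2 of the 16 sets of 4 receptor values examined (4 receptors in 4 groups), by Dixon's test at its 95% critical value. Chance marks about 1 in 20 such sets. Both concern Erbb2. Its level of 38.6 TPM in control replicate 3 of the exon 2-3 line lay below the other 3 controls, with a gap to the nearest of them of 0.834 of the group's range. Its level of 52.9 TPM in cKO replicate 4 of the exon 2 line lay below the other 3 cKO libraries, with a gap of 0.983 of the range.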

How the results depend on the processing

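Of 481 values under alternatives, 443 kept their direction and their side of the threshold (counts: stayed within 1.5 times). The exon 2-3 count of 176 genes was 95 without the filter, 311 with quantile normalisation, 343 with median centring and 70 to 190 with a library left out (70 to 100 without control replicate 1 or 2 or any cKO replicate). The exon 2 count of 2 was 4 in 1 fit over all libraries and 2 to 4 with a library left out (4 without control replicate 3). The interaction count of 62 was 133 with quantile normalisation, 127 with median centring and 36 to 84 with a library left out (36 to 41 without exon 2-3 cKO replicate 3, exon 2 control replicate 4, or exon 2 cKO replicate 2 or 4). Of the calls, 61.9% were higher in the exon 2-3 line (50.5% quantile, 41.4% centred), 67.7% in the interaction (53.4%, 52.0%) and 27.5% between controls (39.9%, 57.7%). The exon 2-3 change of Egfr lost its call without the filter (0.48, limma adjusted p 0.0676), with quantile normalisation (0.43), with the replicate block (0.48, limma adjusted p 0.0663) and in all 8 fits with a library left out (0.43 to 0.54). It kept it with the pseudocount of 0.1 (0.79, limma adjusted p 0.0404), median centring, no trend, hemoglobin rescaling and 1 fit over all libraries, and could not be tested at a mean TPM of at least 5. With a library left out the same change of Erbb2 ran from -0.18 to -0.052, and it passed without control replicate 3.

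Uncalled values changed sign with a library left out: Erbb4 in the exon 2-3 line without cKO replicate 2 (-0.014, range to 0.12), Erbb2 in the exon 2 line without cKO replicate 4 (0.013, range from -0.069), and Erbb3 there without control replicate 2 (-0.017) or cKO replicate 3 (-0.021, range to 0.11). The interaction of Erbb4 did so without exon 2-3 control replicate 4 (0.037), exon 2-3 cKO replicate 4 (0.046), exon 2 control replicate 2 (0.051) or exon 2 cKO replicate 3 (0.0025), with a range from -0.088 to 0.051. The exon 2-3 share of Erbb4 was higher on average in the cKO, and as log2(TPM + 1) relative to the mean log2(TPM + 1) of the other 3 receptors it changed by -0.14. The causes were not tested. The receptors' control differences kept their calls in every alternative run, but that of Egfr did so narrowly. Its largest limma adjusted p was 0.0496, and its weakest difference was -0.31. The replicate block gave 149, 2 and 68 calls in the exon 2-3 line, the exon 2 line and the interaction, changed no other receptor call, and could not give the control difference. Depth is unknown, which limits Egfr most.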
